A study of Mus musculus with 3 samples.

Results

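The genes described here are 8 negative feedback regulators of receptor tyrosine kinase and ERK signalling: the ERK phosphatase genes Dusp4, Dusp5 and Dusp6, the Sprouty genes Spry1, Spry2 and Spry4, and the Sprouty-related genes Spred1 and Spred2. They were chosen by name, with earlier results of these data known, as the probe sets whose annotation gives one of these symbols. All 8 were found among 19938 mouse genes, on 9 probe sets, since Spred2 has 2. The series holds 3 Affymetrix MoGene-1_0-st-v1 arrays, 1 per group, of total RNA from soft tissue sarcoma of mice with an inducible EWS/ATF1 transgene, on a mixed C57/BL6, 129 and ICR background. In EWS/ATF1, the fusion protein of human clear cell sarcoma, the start of EWSR1 is joined to the DNA-binding part of the transcription factor ATF1. By its label, the control array should carry RNA of a tumor cell line kept 24 h without doxycycline (0 microg/ml), the high doxycycline array RNA of cells given 0.2 microg/ml for 24 h, and the tumor array RNA of a tumor resected from a mouse that had received doxycycline for 3 months. Marker genes described below go against the control and tumor labels. The labels give the control and high doxycycline arrays one number and the tumor array another, without saying what the numbers stand for. No source used here gives the promoter that drives the transgene or the age of the mice.

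Receptor tyrosine kinases signal through RAS, RAF and MEK to ERK, and active ERK induces genes that dampen the same route. The dual-specificity phosphatases DUSP4, DUSP5 and DUSP6 remove the activating phosphates from ERK, DUSP4 and DUSP5 in the nucleus and DUSP6 in the cytoplasm. Sprouty proteins act between the receptor and RAF, and SPRED proteins bring the RAS inhibitor neurofibromin to the membrane. The transcripts of several of these genes are widely read as markers of ERK activity.

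Each group has 1 array, so that the differences carry no test and no replicate error, and the small number of arrays limits their precision. Values are deposited intensities, and differences are taken between log2(intensity + 1) values, a scale that understates folds of dim genes. A gene was eligible for a count where its brighter array of the pair lay above the median of that array, and it was counted where it differed by at least 2-fold (1 on the log2 scale). How far the probe sets of one gene disagree is a technical measure within the arrays. That disagreement had a median of 0.37 and a percentile 95 of 1.99 over 664 genes between high doxycycline and control, 0.38 and 2.0 over 671 genes between tumor and control, and 0.055 and 0.46 over 649 genes between tumor and high doxycycline. It holds no variation between samples, and probe sets with identical values on both arrays enter it, so that it sets no bound on what repeated samples would give.

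Markers of other tissues go against the labels of the control and tumor arrays. Of 12 macrophage genes, the control array had 12 above its median, the high doxycycline array 2 and the tumor array 1, and their summed intensity was 26293, 2504 and 1437 in that order. Of 12 endothelial genes 11, 1 and 1 lay above it (summed 10591, 1793 and 1663), of 12 skeletal muscle genes 12, 5 and 4 (32825, 2461 and 2574), of 11 fibroblast and matrix genes 11, 7 and 9 (56861, 2566 and 3208), and of 10 smooth muscle and pericyte genes 7, 4 and 4 (6461, 3503 and 2648). No marker was at 0, since the lowest intensity on any array was 20.7. Of 10 keratinocyte genes 0, 1 and 1 lay above the median (1483, 2128 and 1549). The 10 pigment cell and clear cell sarcoma genes stood at 5, 5 and 5 (8117, 8298 and 7845). Of these, the melanocyte factor gene Mitf had 1281, 1344 and 1018, S100b 3574, 4256 and 4156 and the endothelin receptor gene Ednrb 1052, 1459 and 1200, well above the medians. Sox10 had 253, 222 and 200 and Pmel 243, 243 and 251, near them. The pigment genes Mlana (188, 179 and 179), Dct (93.8, 81.2 and 81.2), Tyrp1 (86.1 on each array) and Tyr (55.1 on each array) lay below them. Gpnmb lay above them but was uneven, with 1292, 373 and 619. Arrays are therefore named by their labels throughout, and each direction below holds between these arrays, whatever material they carry. In bulk RNA, fewer cells of a type and less RNA per cell cannot be told apart. Both comparisons with control carry this gap in tissue genes, and its part in the results was not tested.

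Dusp6, which encodes the cytoplasmic ERK phosphatase and is itself a target of ERK signalling, differed most of the 8 genes in both comparisons with the tumor array. Between high doxycycline and control Dusp4 differed more. Dusp6 had an intensity of 3435 (control), 1794 (high doxycycline) and 455 (tumor). It was brightest on control, intermediate on high doxycycline and dimmest on tumor, where it still lay above the array median. Dusp6 was 7.54-fold dimmer on tumor than on control and 3.94-fold dimmer on tumor than on high doxycycline (log2 differences of -2.91 and -1.98). Of the 11212 genes compared between tumor and high doxycycline, 31 (0.276%) were at least as far down as Dusp6. Between high doxycycline and control Dusp6 was 1.91-fold dimmer (-0.94), which did not reach 2-fold as deposited and passed it under quantile normalization (-1.19).

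Dusp4, the gene of a nuclear phosphatase of ERK, ran in another order. It had an intensity of 280 (control), 755 (high doxycycline) and 426 (tumor). High doxycycline was the brightest array and control the dimmest. Dusp4 was 2.69-fold brighter on high doxycycline than on control (1.43), and 9.32% of genes were at least as far up. Between tumor and high doxycycline it was 1.77-fold dimmer (-0.83), and 2.85% of genes were at least as far down. Dusp4 and Dusp6 thus lay on opposite sides of 0 between high doxycycline and control, 2.37 apart on the log2 scale, a distance that no shift of a whole array can alter, and on the same side between tumor and high doxycycline.

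Dusp5, which encodes the other nuclear ERK phosphatase, followed the order of Dusp6 with smaller steps. Its intensities were 476 (control), 290 (high doxycycline) and 243 (tumor). It was dimmer than on control by 1.64-fold on high doxycycline and by 1.95-fold on tumor (-0.71 and -0.97), short of 2-fold in both. Between tumor and high doxycycline the difference was -0.25, and 13.1% of genes lay at least as far down.

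Among the Sprouty genes, whose products block signalling upstream of ERK, Spry1 had the widest range. It had 402 (control), 221 (high doxycycline) and 174 (tumor). Only the control value lay above the array median, so that Spry1 was dim on both other arrays. It was 1.81-fold dimmer on high doxycycline and 2.30-fold dimmer on tumor than on control (-0.86 and -1.20). The larger difference became -0.97 with a pseudocount of 64, and 7.89% of genes were at least as far down in that comparison. Between tumor and high doxycycline it was 1.27-fold dimmer, but both values are below the median and it stayed out of that count.

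Spry2, a Sprouty gene induced by many growth factors, varied little. Its intensity was 935 on control and 781 on both other arrays, where the deposited values were identical. Identical values on these arrays were found for 34.6% of all 28856 probe sets, so that a difference of 0 here need not be a measured one. Spry4 had 380 (control), 570 (high doxycycline) and 472 (tumor), in the same order as Dusp4. Its differences from control were 0.58 and 0.31, and it was 1.21-fold dimmer on tumor than on high doxycycline (-0.27). All 3 lay below 2-fold.

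Spred1, whose product recruits neurofibromin to the membrane, had 2597 (control), 2472 (high doxycycline) and 1512 (tumor). The first pair of arrays lay close together and tumor lay lower. The difference between high doxycycline and control was -0.07 and became 0.07 when all arrays were shifted to a common median, so that it has no settled direction. Between tumor and high doxycycline Spred1 was 1.63-fold dimmer (-0.71), with 3.59% of genes at least as far down. Between tumor and control it was 1.72-fold dimmer (-0.78), and the difference became -1.04 under quantile normalization.

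Spred2, the gene of a related inhibitor, was the one member with a pair of probe sets, and they disagreed. The brighter had the identical value of 926 on all 3 arrays, as had 15.0% of all probe sets. The dimmer had 351 (control), 607 (high doxycycline) and 546 (tumor), with differences of 0.79 from control to high doxycycline and of -0.15 from high doxycycline to tumor. As a mean over both, Spred2 differed by 0.39 between high doxycycline and control.

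**Figure D1:**
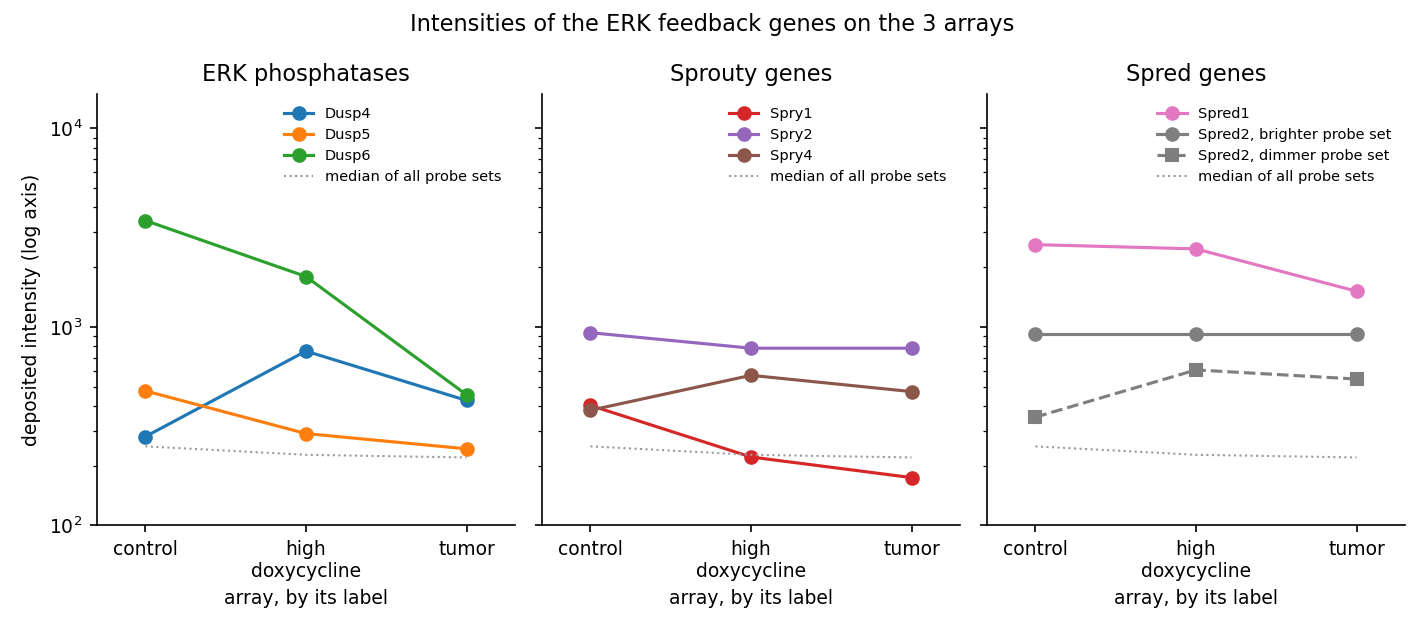
Deposited intensity (log axis) of each gene by array label, 1 point per array, with lines joining the points of 1 probe set and a dotted line at the median of all probe sets. Dusp6 runs from 3435 to 455, Dusp4 and Spry4 are highest on high doxycycline, and the brighter Spred2 probe set stays at 926.

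The 8 genes did not move as one group. Dusp5, Dusp6, Spry1, Spry2 and Spred1 (5 of 8) were brightest on control and had on tumor at most their value on high doxycycline, an order shared by 3290 of 12112 genes above the brightness filter (27.2%). For Spred1 that order changes with a common median, and the equal values of Spry2 do not decide it. Dusp4 and Spry4 were brightest on high doxycycline and dimmest on control, as were 17.9% of genes. The phosphatases and the Sprouty genes each held both orders.

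Counted at 2-fold between high doxycycline and control, 1 of 8 members was brighter, Dusp4, against 17.5% of 11934 genes, and none was dimmer, against 8.46%. The median difference of the members was -0.17, and that of all genes 0.08. Between tumor and control 2 of 8 were dimmer, Dusp6 and Spry1, against 10.2% of 12011 genes, and none was brighter, against 18.6%. The median was -0.52, and that of all genes 0.08. These comparisons share the control array, and with so few members their counts do not stand clear of the background shares.

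Between tumor and high doxycycline, the comparison without the control array, few genes differed. Of 11212 genes 1.60% were at least 2-fold brighter on tumor and 1.94% dimmer. Of the 7 members above the filter 1 was dimmer, Dusp6, and none was brighter. As deposited, 5 of the 7 were dimmer on tumor by some amount, against 40.6% of the 11212 genes, and Spry2 and Spred2 had identical values, against 26.3%. Over the alternatives Spry2 lay between 0.00 and 0.04 and Spred2 between -0.08 and 0.04. The members' median was -0.27 against 0.00 over all genes. Dusp4, Dusp6 and Spred1 lay below the percentile 5 of all genes (-0.56). The macrophage sum on these arrays was 2504 on high doxycycline and 1437 on tumor, of which the monocyte receptor gene Cd14 made up 914 and 158. Mcam, in the smooth muscle and pericyte list, had 1236 and 570, and the desmosome gene Dsg3, in the keratinocyte list, 918 and 305, both chosen after their values were seen. With the tissue sums above, their part in these differences was not tested.

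**Figure D2:**
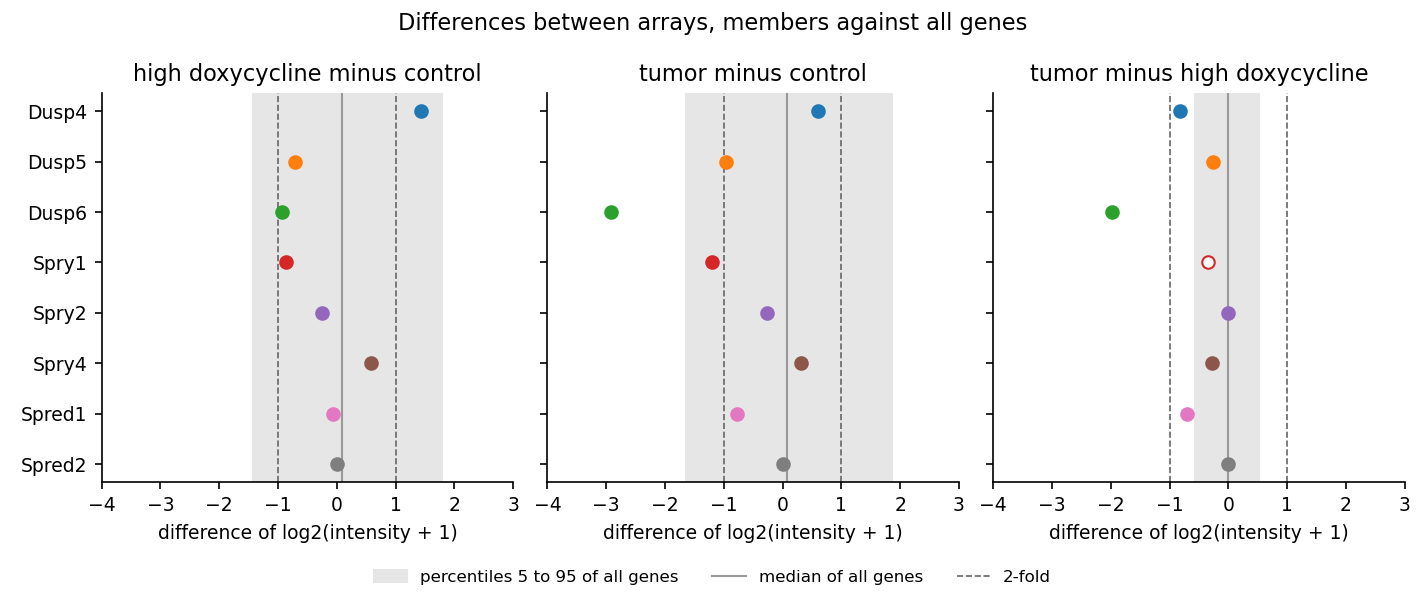
Difference of log2(intensity + 1) for each gene in the 3 comparisons, with the range from percentile 5 to 95 and the median of all genes above the brightness filter in grey and dashed lines at 2-fold. The open circle marks Spry1 below the filter. Dusp6 lies outside the grey range in both comparisons with tumor, at -2.91 and -1.98, and Dusp4 and Spred1 lie outside it between tumor and high doxycycline.

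Promoters were searched because ATF1 binds the cyclic AMP response element and ERK acts on AP-1, ETS and serum response factors. RefSeq promoters (GRCm38.p6, from 250 bases before to 50 after each start) were matched by symbol for 6 of the 8 genes, and Dusp4 and Spry4 are not shown. Both strands were searched for the cyclic AMP response element TGACGTCA, the short form TGACG, which lies within the full element, the AP-1 site TGANTCA, the ETS core CCGGAAG and, added after the sequences were seen, the CArG box bound by serum response factor. The full element was found in 0 of 6 (1.79% of 32851 promoters), the AP-1 site in 0 of 6 (7.81%) and the ETS core in 0 of 6 (8.86%). The short form was found in Dusp5 and Spred2 (20.8% of promoters) and the CArG box in Dusp5 (1.63%). The 100 bases before the start are printed for the 2 genes with a match and for the 2 members that were dimmer on tumor than on control by 2-fold, in the direction of the gene, with every match in capitals. The windows are chr10:99263131-99263230 for Dusp6, chr3:37639847-37639946 for Spry1, chr19:53529045-53529144 for Dusp5 and chr11:19924342-19924441 for Spred2, all on the + strand.
Dusp6: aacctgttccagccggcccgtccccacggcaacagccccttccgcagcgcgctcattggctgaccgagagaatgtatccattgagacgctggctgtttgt
Spry1: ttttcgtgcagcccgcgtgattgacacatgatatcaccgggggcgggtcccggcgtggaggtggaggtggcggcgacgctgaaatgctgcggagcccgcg
Dusp5: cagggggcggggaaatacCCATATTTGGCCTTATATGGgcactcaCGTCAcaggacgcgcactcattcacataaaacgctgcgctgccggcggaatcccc
Spred2: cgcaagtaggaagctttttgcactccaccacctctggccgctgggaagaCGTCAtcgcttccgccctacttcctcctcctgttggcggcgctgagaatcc
In Dusp5 a pair of CArG boxes adjoin each other, starting 82 and 72 bases before the start site, and the short form, read here on the other strand as CGTCA, starts 55 bases before it. In Spred2 the short form starts 51 bases before the start. Dusp6 and Spry1 hold no match in these windows, which says only that these letters are not there. A match is a description of the sequence, and binding was not measured.

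The other genes of the pathway were taken from 7 lists with 140 entries, of which 129 were measured. These lists were chosen with earlier results of these data known, so that their counts describe these arrays and test nothing. Between tumor and high doxycycline 6 of 98 genes above the filter (6.12%) were at least 2-fold dimmer on tumor and 2 (2.04%) were brighter, against 1.94% and 1.60% of all genes. Between tumor and control 23 of 113 (20.4%) were dimmer and 11 (9.73%) brighter, against 10.2% and 18.6%. Between high doxycycline and control 14 of 112 (12.5%) were dimmer and 12 (10.7%) brighter, against 8.46% and 17.5%. The 6 between tumor and high doxycycline were a ligand gene and 5 genes of the list of ERK-induced transcripts. What induces these genes here was not tested, and ERK activity was not measured.

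Among ligands Hbegf, a ligand of the EGF receptor, had 824 (control), 1018 (high doxycycline) and 471 (tumor), 2.16-fold dimmer on tumor than on high doxycycline. It was the only one of 12 ligands past 2-fold in that pair, where 1.94% of all genes were dimmer and 1.60% brighter. Against control 4 of 16 ligand genes were dimmer on tumor (10.2% of all genes) and 2 on high doxycycline (8.46% of all genes). They were led by Igf1, the insulin-like growth factor gene (1434, 160 and 229 on control, high doxycycline and tumor), and Pdgfc (447, 129 and 141). Fgf18 and Pdgfb were the others on tumor, 2.61-fold and 2.33-fold dimmer, with Pdgfb at -0.95 under an alternative. No ligand was 2-fold brighter than on control, against 17.5% of all genes on high doxycycline and 18.6% on tumor.

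Receptor genes were the pathway list with the lowest medians against control, -0.74 for high doxycycline and -1.15 for tumor. Of 18 above the filter 8 were dimmer on high doxycycline and 10 on tumor (8 with a common median), and 1 was brighter in each. Of all genes 8.46% were dimmer on high doxycycline and 10.2% on tumor, and 17.5% and 18.6% were brighter. The largest differences were those of Kdr, the VEGF receptor gene of endothelium (1955, 133 and 101), Csf1r, the receptor gene of macrophages (1201, 214 and 173), and Pdgfrb, the receptor gene of pericytes (1100, 169 and 187). Flt1, another VEGF receptor gene, had 535, 153 and 143. Kdr, Csf1r and Pdgfrb also stand in the marker lists of those cell types. The brighter receptor gene was Met, the hepatocyte growth factor receptor (435, 1868 and 1244), which is outside the naming rule and was chosen after its values were seen. Axl, a TAM family receptor gene, was the only one of 11 past 2-fold between tumor and high doxycycline, with 2681 (control), 514 (high doxycycline) and 1088 (tumor). In that pair 1.60% of all genes were brighter on tumor and 1.94% dimmer.

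No gene of the cascade reached 2-fold between tumor and high doxycycline. None of 17 adaptor and GTPase regulator genes and none of 15 RAS, RAF, MEK and ERK genes did so in either direction, against 1.60% brighter and 1.94% dimmer of all genes. Against control 3 of the 17 and 3 of the 15 were brighter on high doxycycline (17.5% of all genes), and 2 and 3 on tumor (18.6%). None of the 17 was dimmer, and of the 15 there were 2 on high doxycycline (8.46%) and 1 on tumor (10.2%). Counts this small do not stand clear of these shares. Map2k1, the gene of the ERK kinase MEK1, had 1312, 3244 and 3348 on control, high doxycycline and tumor. Lamtor3, a MEK scaffold gene, had 947, 2350 and 2526. Rps6ka3, the gene of a kinase activated by ERK, ran the same way (376, 816 and 1092), and Mknk2, another such kinase gene, the other way (2646, 890 and 1250). Rasa1, a gene of a RAS inhibitor, had 526 on control and 1295 on both other arrays, and Lztr1, a gene for RAS degradation, had 773, 1679 and 1778. Rasgrp3, a RAS activator gene, had 1478, 3403 and 2629. The medians of both lists lay between -0.28 and 0.45 against control over the scalings and turned sign with them.

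The relatives of the members held none that passed 2-fold between tumor and high doxycycline. This held for 14 other MAP kinase phosphatase genes and for 10 genes listed as other feedback inhibitors. Of all genes 1.60% were brighter and 1.94% dimmer in that pair. The name of the 2nd list is loose for Flrt3 and Peak1, which are in it and need not inhibit the pathway. Against control 2 of 13 phosphatase genes were brighter on high doxycycline and 2 of 14 on tumor, and none was dimmer. Of the 10 other feedback inhibitors 2 were brighter and 1 dimmer on high doxycycline, and 1 and 1 on tumor. Of all genes 17.5% were brighter and 8.46% dimmer on high doxycycline, and 18.6% and 10.2% on tumor. Counts this small do not stand clear of those shares. Dusp19 had 281 (control), 1488 (high doxycycline) and 1511 (tumor), and Ptprr, a phosphatase gene that acts on ERK, had 171, 392 and 531. Spry3, the remaining Sprouty gene, had 167, 504 and 529, so that it was brighter than on control by 3.00-fold and 3.15-fold, while Spry1 was dimmer. Socs3, an inhibitor of cytokine signalling, had 2167, 732 and 951, and Flrt3, a partner of FGF receptors, had 635, 1324 and 1114. Over the alternatives Rasgrp3, Lztr1, Mknk2, Ptprr, Socs3 and Flrt3 each dropped below 2-fold in at least 1 comparison with control, with Socs3 between -1.85 and -0.99 on high doxycycline.

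Among the pathway lists, the transcripts listed as induced by ERK held most of the 2-fold differences between tumor and high doxycycline. The list was chosen with earlier results of these data known, so that its counts are no test of a response of ERK targets. Of 19 above the filter 5 were at least 2-fold dimmer on tumor and 1 was brighter, against 1.94% and 1.60% of all genes. The 5 became 4 with a common median and also under quantile normalization. The median of these 19 was -0.43, which stayed below 0 under both scalings. The AP-1 gene Fos had 1114 (control), 1234 (high doxycycline) and 302 (tumor), 4.07-fold dimmer on tumor than on high doxycycline. The immediate early gene Ier3 (1399, 1040 and 361) was 2.88-fold dimmer, and the plasminogen activator gene Plat (3115, 2302 and 988) and the small Maf gene Maff (511, 598 and 256) were each 2.33-fold dimmer. The ETS factor gene Etv5 (798, 841 and 411), named because the count is small, had a difference of -1.03. The ETS factor gene Etv1 was the brighter one (293, 730 and 1566). The 5 dimmer genes were also lowest on tumor, which their choice by a lower value there than on high doxycycline largely sets. Of these 5, only Ier3 and Plat had the order of Dusp6 over all 3 arrays. Against control 7 of 23 were dimmer on tumor (11 under quantile normalization; 10.2% of all genes) and 2 were brighter (1 under quantile normalization; 18.6% of all genes), Etv1 and Phlda1 (1483, 1579 and 3019), named because the count is small. On high doxycycline 1 was dimmer (5 under quantile normalization; 8.46% of all genes) and 1 brighter (2 with a common median; 17.5% of all genes), Etv1. Plaur, the urokinase receptor gene, was the dimmer one on high doxycycline (368, 116 and 102).

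**Figure D3:**
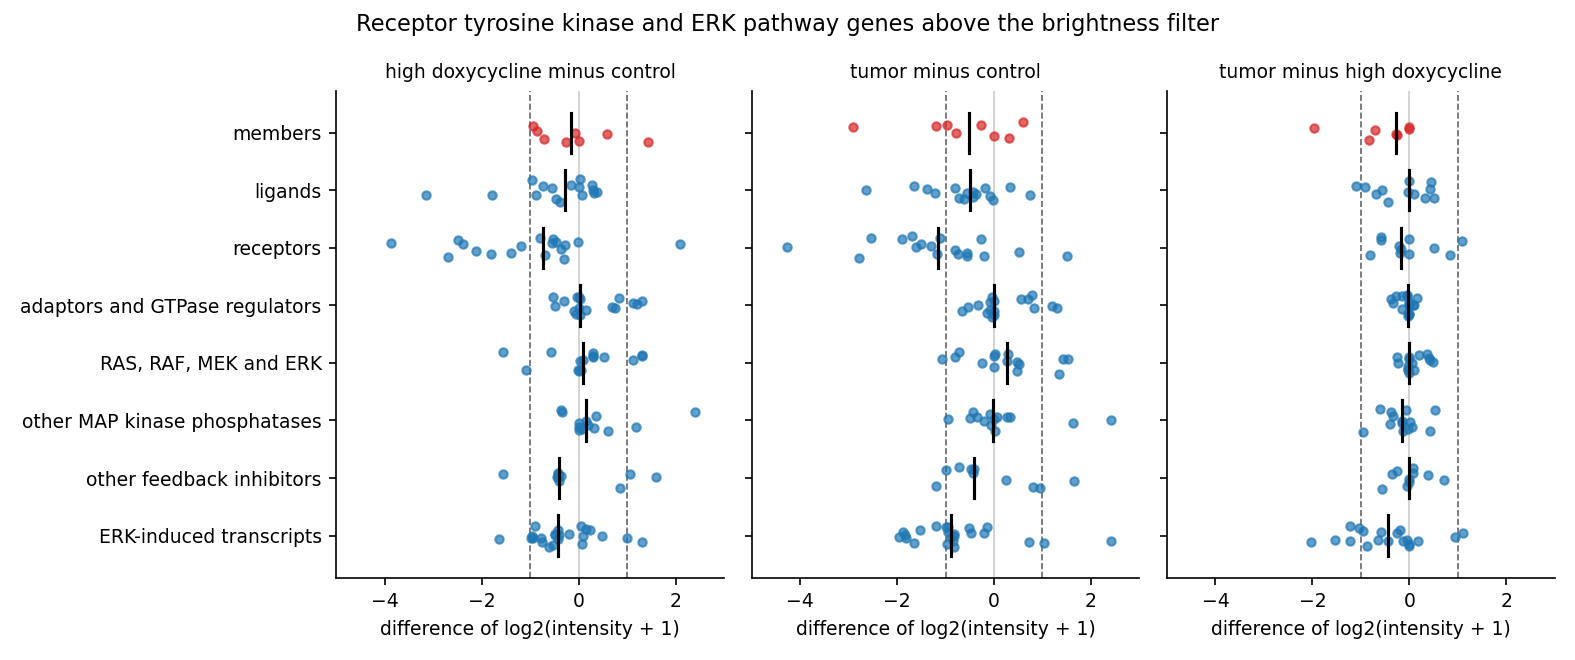
Difference of log2(intensity + 1) in the 3 comparisons for the 8 members (red) and the pathway lists (blue), 1 point per gene above the brightness filter, with a black bar at the median of each list and dashed lines at 2-fold. Against control the receptor list has the lowest median (-0.74 and -1.15), and between tumor and high doxycycline most points outside 2-fold on the dim side belong to the ERK-induced transcripts.

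As a check of the labels, Atf1 had 1189, 1063 and 933 on control, high doxycycline and tumor, and Ewsr1 had 1660, 1650 and 1624, so that neither partner of the fusion set the arrays apart. No source used here says if these mouse probe sets pick up the transgene.

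Genes with the most similar pattern were ranked by the distance between log2 values centred on the mean of each gene, over the 3 arrays and 11746 candidate genes. Closest to Dusp6 were Adgrf5 (4034, 1975 and 603 on control, high doxycycline and tumor, at a distance of 0.191), Hhipl1 (1639, 789 and 257) and Pmvk (3117, 2091 and 498). Closest to Dusp4 were Rell2 (890, 2402 and 1431, at 0.065), Zdhhc14 and Kcnk5. Closest to Spry1 were Shank3 (355, 198 and 156, at 0.016), Dst and Psmg4. With 3 arrays, close profiles are common, and the pattern of Dusp6 had the most distant neighbours of these members.

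**Figure D4:**
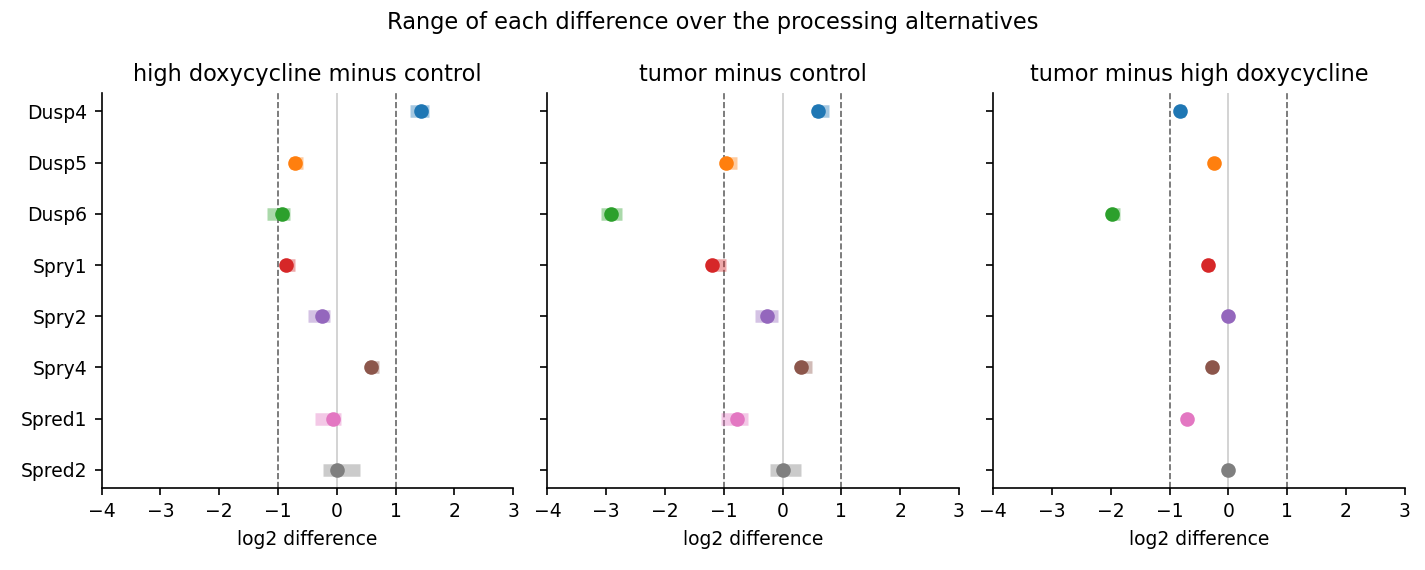
Log2 difference of each gene as deposited (point) and its range over the alternatives in scaling, pseudocount and probe sets (bar), with dashed lines at 2-fold. The differences between tumor and high doxycycline have the shortest bars, with Dusp6 between -1.98 and -1.84.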

How the data were processed

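Total RNA was isolated with a column kit, biotin labelled and hybridised, per the labels' protocols. The authors deposited 1 linear intensity per probe set and array. No source used here gives their background correction, probe summary or normalization. Median intensities of the 28856 probe sets were 250.0, 226.7 and 219.8 on control, high doxycycline and tumor.

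Genes were named through the platform annotation: 21789 probe sets have 1 symbol, 1621 several and 5446 none, and the last 2 kinds were left out. Of those with 1 symbol 21698 matched a RefSeq gene table by Entrez number. Where a gene had more than 1 probe set, the brightest on average stood for it. Differences are of log2(intensity + 1), with Python 3.11.15, numpy 2.4.6 and pandas 2.3.3. The counting was checked on simulated data.

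The members and lists were chosen with earlier results of these data known. Named are all members, per pathway list up to 4 genes with the largest difference past 2-fold in each comparison, and per member past 2-fold the 3 genes closest in pattern. Alternatives were a common median, quantile normalization, pseudocounts of 16 and 64, a brightness filter at percentile 75 or none, averaging all probe sets, and using only genes with a single one.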

Additional observations from a re-analysis of the deposited data

How the results depend on the processing

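Of 24 member differences, none of those past 2-fold changed sign under the alternatives, and the 2-fold side changed for Dusp6 (high doxycycline against control), Spry1 and Spred1 (both tumor against control), as given above. With the brightness filter at percentile 75 the members 2-fold brighter on high doxycycline than on control became 0, since Dusp4 lay below that filter, the members dimmer on tumor than on control became 1, the pathway genes dimmer on high doxycycline than on control became 9 of 69, and the member median between tumor and high doxycycline became -0.71 over 3 genes. Under quantile normalization 1 member was dimmer on high doxycycline than on control. With a pseudocount of 64, 1 member was dimmer on tumor than on control and 1 pathway gene was brighter on tumor than on high doxycycline. Among genes with a single probe set that pathway count was also 1 and the member median in that pair was -0.49. The other 111 of 120 values for counts and medians stayed within 1.5 times, or for medians within the median probe set disagreement. No paired analysis was possible because each group has 1 array. Dim genes such as Spry1 carry the least signal over background.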
